A study of Mus musculus with 3 samples.

Results

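The extracellular matrix genes other than collagens were examined in ST2 cells, a stromal cell line from mouse bone marrow. The 43 genes were taken by name from the 51826 rows of the expression table, from a list drawn up with earlier results of these data known, and each name was found on 1 row. They encode laminin chains and other basement membrane proteins (10 genes), proteins of elastic fibers and microfibrils (15 genes), small leucine-rich proteoglycans with versican (7 genes), and matricellular and adhesive glycoproteins (11 genes). Polyadenylated RNA was sequenced from 3 libraries, 1 per group. Control cells had been given vector without insert together with a control siRNA. For NELL2 overexpression the vector carried NELL2 and the siRNA was again the control, and for Fn1 knockdown the vector was empty and the siRNA targeted Fn1. Every siRNA was used at 30 nM. All 3 groups were therefore transfected with both a plasmid and an siRNA, by lipofection, and the cells were grown with 10% FBS, which contains matrix proteins of its own. Which Fn1 siRNA was used, and how long after transfection the RNA was taken, are not given in the sources used here. With 1 library in each group no difference below has a replicate check and no p-value was computed.

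Cells attach to a matrix in which fibronectin, the product of Fn1, helps to organize other proteins. Laminins are trimers of an α, a β and a γ chain and form sheets that nidogens, perlecan and agrin tie to collagen IV and to the cell surface. Fibrillin microfibrils carry elastin, fibulins and latent TGF-β binding proteins. Small leucine-rich proteoglycans bind collagen fibrils and growth factors. Matricellular proteins such as thrombospondins, tenascin-C and SPARC act on adhesion and signaling more than on structure. Bone marrow stromal cells and osteoblasts are known for making many of these proteins, among them biglycan, SPARC (osteonectin) and periostin. NELL2 is a secreted glycoprotein that the study placed upstream of fibronectin, and the comparisons asked which genes respond to more NELL2 or to less Fn1.

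Values are FPKM, the number of fragments scaled to transcript length and to the mapped total of the library. Estimated depth was between 23000000 and 24200000 fragments per library. In the order control, NELL2 overexpression and Fn1 knockdown, Fn1 was at 2802, 2489 and 137 FPKM and Nell2 at 0.640, 326 and 1.06 FPKM, so both targeted genes followed their labels. All 10 stromal markers examined, which included Col1a1, Pdgfrb and Vcam1, were at 1 FPKM or more in every library, with summed levels between 2765 and 3233 FPKM. Ptprc, Pecam1, Cdh1 and Adipoq, which define blood, endothelial, epithelial and fat cells, were at 0.188 FPKM or less throughout. The 5 blood cell markers with a value summed to 4.55, 4.56 and 1.88 FPKM in the order above, and of these Cd68, a macrophage marker, was at 4.08, 3.54 and 1.57 FPKM and Adgre1, also of macrophages, at 0.426, 0.950 and 0.273 FPKM. The 5 endothelial markers summed to 1.79 FPKM or more but less than 2 FPKM in each library, with Kdr at 0.914, 0.812 and 1.33 FPKM and Cdh5 at 0.738, 0.809 and 0.499 FPKM. The 5 epithelial markers summed to 0.412 FPKM or less and the 4 fat cell markers to between 1.48 and 1.59 FPKM, most of it Fabp4. The osteoblast markers Bglap, Ibsp and Dmp1 were at 0.182 FPKM or less, and Sp7 was between 3.72 and 4.13 FPKM. The cartilage collagen Col2a1 was at 300, 287 and 602 FPKM in the same order, while Acan, Col9a1 and Sox9 were between 5.17 and 13.4 FPKM, so that the 4 cartilage markers summed to 325, 310 and 627 FPKM. The part of these marker differences in the results below was not tested.

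Promoter sequences are shown for 4 genes described below. Of these Tgfbi alone passed 2-fold after Fn1 knockdown, while Bgn and Fmod (lower) and Tnc (higher) did not reach 1.5-fold. They were read from the RefSeq promoter table (GRCm38.p6), which held 32 of the 43 genes. Each is the 250 bases before the RefSeq start, from which the match positions below are counted. For Tgfbi only the first 187 of them are printed, because its GENCODE annotation begins inside that window. They lie at chr13:56609336-56609522 (Tgfbi, plus strand), chrX:73483351-73483600 (Bgn, plus strand), chr1:134037004-134037253 (Fmod, plus strand) and chr4:64047016-64047265 (Tnc, minus strand). Capitals mark matches, on either strand, to TATAAA (the core promoter box), TGANTCA (bound by AP-1), GGAATG (bound by TEAD factors) and CAGAC (a short SMAD element).
Tgfbi: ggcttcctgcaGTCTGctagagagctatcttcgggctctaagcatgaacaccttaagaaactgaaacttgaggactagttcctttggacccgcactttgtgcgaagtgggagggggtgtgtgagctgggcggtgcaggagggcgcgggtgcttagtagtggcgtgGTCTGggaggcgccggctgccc
Bgn: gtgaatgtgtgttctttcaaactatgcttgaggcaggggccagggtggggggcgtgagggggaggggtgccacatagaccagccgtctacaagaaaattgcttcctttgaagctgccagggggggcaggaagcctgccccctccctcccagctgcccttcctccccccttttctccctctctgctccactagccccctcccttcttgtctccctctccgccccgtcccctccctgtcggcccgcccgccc
Fmod: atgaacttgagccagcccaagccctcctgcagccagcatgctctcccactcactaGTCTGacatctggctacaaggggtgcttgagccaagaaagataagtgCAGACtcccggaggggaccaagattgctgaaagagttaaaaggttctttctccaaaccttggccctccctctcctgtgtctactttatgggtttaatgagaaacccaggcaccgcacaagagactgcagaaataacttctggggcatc
Tnc: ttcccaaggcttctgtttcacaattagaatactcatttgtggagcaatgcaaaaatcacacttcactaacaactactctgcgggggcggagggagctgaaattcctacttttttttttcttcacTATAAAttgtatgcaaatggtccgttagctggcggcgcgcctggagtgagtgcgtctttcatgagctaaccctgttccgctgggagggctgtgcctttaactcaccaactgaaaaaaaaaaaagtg

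Tgfbi held CAGAC at 239 and 85 bases before its RefSeq start, Fmod held it at 195 and 148 bases before, and Tnc held TATAAA at 126 bases before. The Bgn sequence held none of these letters. Such matches are descriptions of the sequence and not sites. In the 250 bases before the start, TATAAA was found in 6 of the 32 matrix genes (18.8%) and in 13.0% of 27025 genes with a promoter in the table. TGANTCA was found in 2 of the 32 (6.25%, against 6.87% of all), GGAATG in 3 (9.38%, against 12.6%) and CAGAC in 17 (53.1%, against 42.1%). The median GC content of these windows was 58.8% for the matrix genes and 52.0% for all genes, and it ran from 30.0% in Aspn to 83.6% in Agrn.

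ST2 cells expressed nearly the whole set. In the control library 42 of the 43 genes were at 1 FPKM or more, 33 at 10 FPKM or more and 11 at 100 FPKM or more, and together they held 2.02% of all FPKM. Sparc, which binds collagen and calcium, was at 2317 FPKM and Thbs1, thrombospondin-1, at 2177 FPKM. These levels ranked 10 and 12 among all genes in the control. The biglycan gene Bgn followed at 912 FPKM, then Thbs2 at 289 FPKM and Tnc, tenascin-C, at 278 FPKM. Sparc and Thbs1 alone made up 55.7% of the summed FPKM of the 43 genes. The exception to expression was Vtn, vitronectin, a serum protein made mainly by liver, which was at 0.0250 FPKM in the control, worth about 1 fragment, and was listed at 0 in the other libraries.

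**Figure D1:**
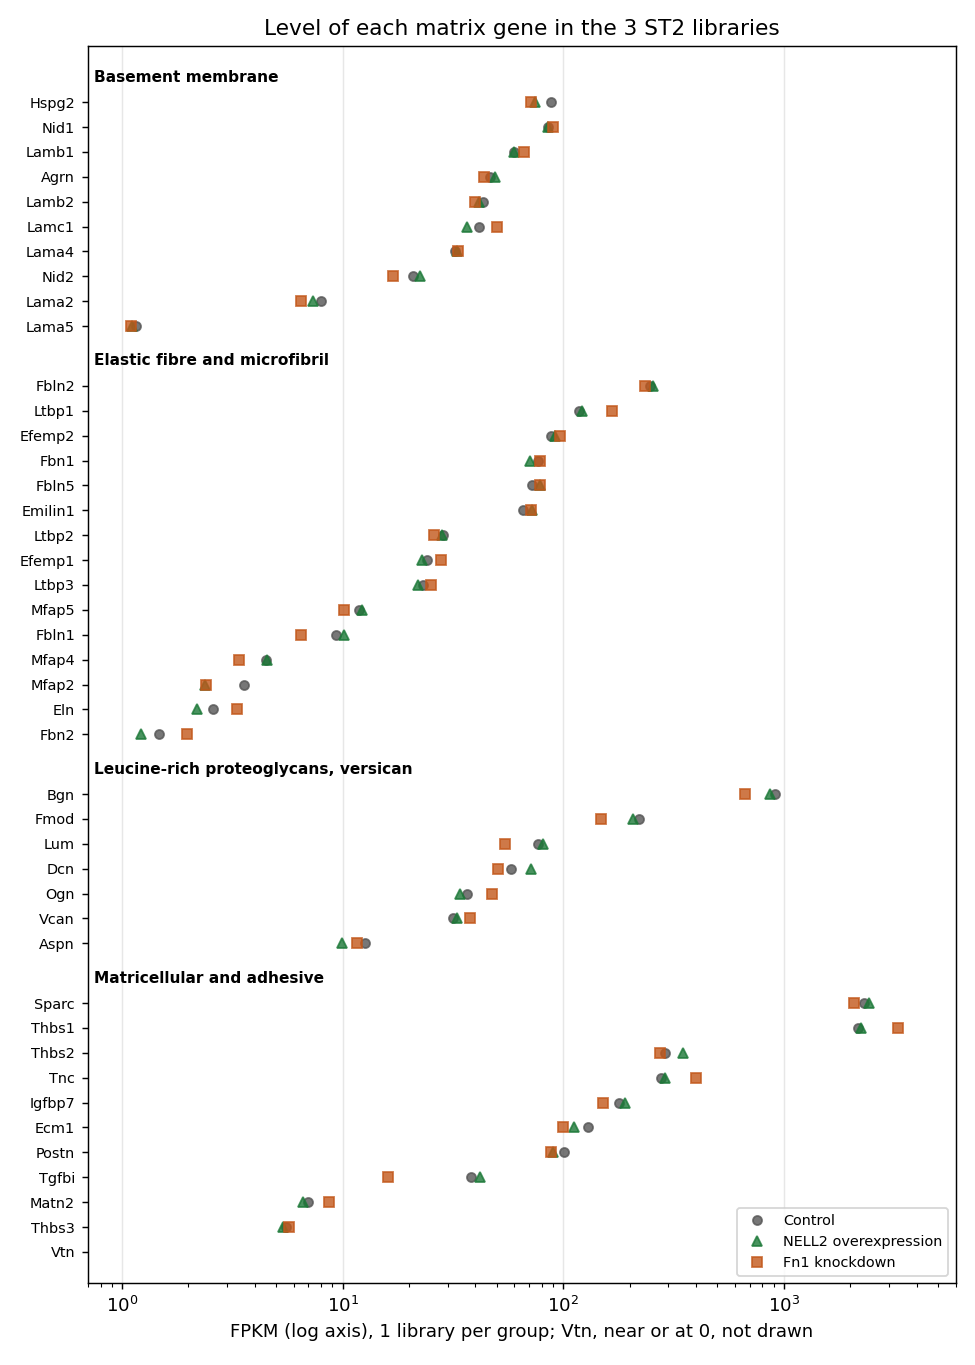
Level of each of the 43 genes in FPKM (log axis), with 1 point per library and the genes grouped by role and ordered by the control level. Sparc and Thbs1 lie farthest to the right in every library, at 2079 FPKM or more, whereas Lama5 and Fbn2 lie between 1 and 2 FPKM.

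Among the laminin chains, the control levels per transcript length were 60.0 FPKM for Lamb1 (β1), 43.5 FPKM for Lamb2 (β2) and 41.6 FPKM for Lamc1 (γ1). Of the α chains, Lama4 (α4) was at 32.5 FPKM, Lama2 (α2) at 7.96 FPKM and Lama5 (α5) at 1.16 FPKM. Thus α4 was the main α chain transcript, at 4.08 times the level of α2. The nidogen gene Nid1 was at 85.6 FPKM and Nid2 at 20.8 FPKM, while Hspg2, which encodes perlecan, was at 88.0 FPKM and Agrn, agrin, at 46.8 FPKM. The fibrillin transcripts were almost all Fbn1, at 76.6 FPKM against 1.48 FPKM for Fbn2. Elastin itself was low, with Eln at 2.58 FPKM, although the fibulin genes Fbln2 and Fbln5, at 248 and 72.4 FPKM, and Emilin1, at 66.0 FPKM, were well expressed. Within the leucine-rich family, Bgn exceeded its close relative Dcn, decorin, by 15.8 times, with Dcn at 57.8 FPKM.

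The first comparison set the NELL2 overexpression library against the control. Genes at 1 FPKM or more in at least 1 of the 2 libraries passed the filter and were tested against a fixed size of change, with no p-value, and those whose log2(FPKM + 1) was 1 or more above or below the control, a 2-fold difference on this scale, are termed called. All differences and log2 ratios below are on this scale, on which weakly expressed genes appear to change less than they do. None of the 42 matrix genes that passed the filter was called, where 0.374% of 12572 genes were called higher and 0.278% lower. No matrix gene passed 1.5-fold on this scale either, where 1.54% of all genes were higher and 1.05% lower. In FPKM without the added 1, Mfap2 was at 66.5% of the control, just past 1.5-fold lower. The median log2 ratio was -0.0091 over the 42 genes, with 20 higher and 22 lower, against 0.0072 over all genes tested. The ratios ran from -0.44 in Mfap2 to 0.31 in Dcn. Among genes at 10 FPKM or more, 91.2% of 34 matrix genes and 88.2% of all 6340 genes lay within 0.25 of the control on the log2 scale. Both comparisons measure RNA of whole cultures, in which fewer cells of a type and less RNA per cell cannot be told apart.

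The widest differences with NELL2 were modest. Dcn was at 57.8, 71.7 and 50.5 FPKM in the control, NELL2 and Fn1 knockdown libraries, so it was highest with NELL2, at 124% of the control (log2 ratio 0.31). A ratio at least this high was seen in 4.84% of all genes at 10 FPKM or more. Thbs2, thrombospondin-2, an inhibitor of vessel growth, was at 289, 350 and 275 FPKM in the control, NELL2 and Fn1 knockdown libraries, a log2 ratio of 0.28 with NELL2. Aspn, asporin, a leucine-rich protein without glycosaminoglycan chains, was at 12.6, 9.89 and 11.7 FPKM in the same order, and was lowest with NELL2 (log2 ratio -0.32). A ratio at least this low was seen in 3.03% of genes at 10 FPKM or more. Dcn and Aspn were picked as the extremes of 34 matrix genes at this level, so these shares do not measure their rarity. The same holds for shares of this kind given below. Aspn shares exon sequence with Cenpp on the opposite strand. Hspg2 was at 88.0, 74.8 and 71.8 FPKM and Ecm1, a secreted glycoprotein of skin and bone, at 129, 112 and 100 FPKM. Both were thus lower than the control in each of the other libraries. The most abundant genes differed little with NELL2, with Sparc at 105%, Thbs1 at 103% and Bgn at 94.7% of the control.

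By role, the 10 basement membrane genes had a median log2 ratio of -0.022 with NELL2 (3 higher, 7 lower), and all 10 lay within 0.25 of the control. The 15 elastic fiber genes had a median of 0.020 (8 higher, 7 lower). The lowest of them, Mfap2, a microfibril glycoprotein, was at 3.59 FPKM in the control, 2.39 FPKM under NELL2 and 2.40 FPKM after Fn1 knockdown, or roughly 81, 56 and 57 fragments. Its counting precision is therefore poor beside that of the abundant genes. The 7 leucine-rich proteoglycan and versican genes had a median of -0.079 (3 higher, 4 lower), and the 10 tested matricellular genes one of 0.052 (6 higher, 4 lower).

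After Fn1 knockdown the ratios of the 42 tested genes were more widely spread, with a standard deviation across genes of 0.34 on the log2 scale against 0.14 with NELL2. Over all genes tested these values were 0.34 and 0.25. A single matrix gene was called, Tgfbi, which fell. It was 1 of 42 tested genes (2.38%), whereas 0.549% of 12574 genes were called lower, and no matrix gene was called higher, against 0.684% of all genes. A single gene is too few to set apart from these shares. At 1.5-fold there were 1 higher (Thbs1) and 1 lower (Tgfbi), or 2.38% each way, against 2.92% and 3.32% of all genes. The median log2 ratio was -0.073 over the 42 genes, with 19 higher and 23 lower, against -0.0028 over all genes tested. Among genes at 10 FPKM or more, 60.6% of 33 matrix genes lay within 0.25 of the control, and 71.6% of all 6421 genes did so.

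**Figure D2:**
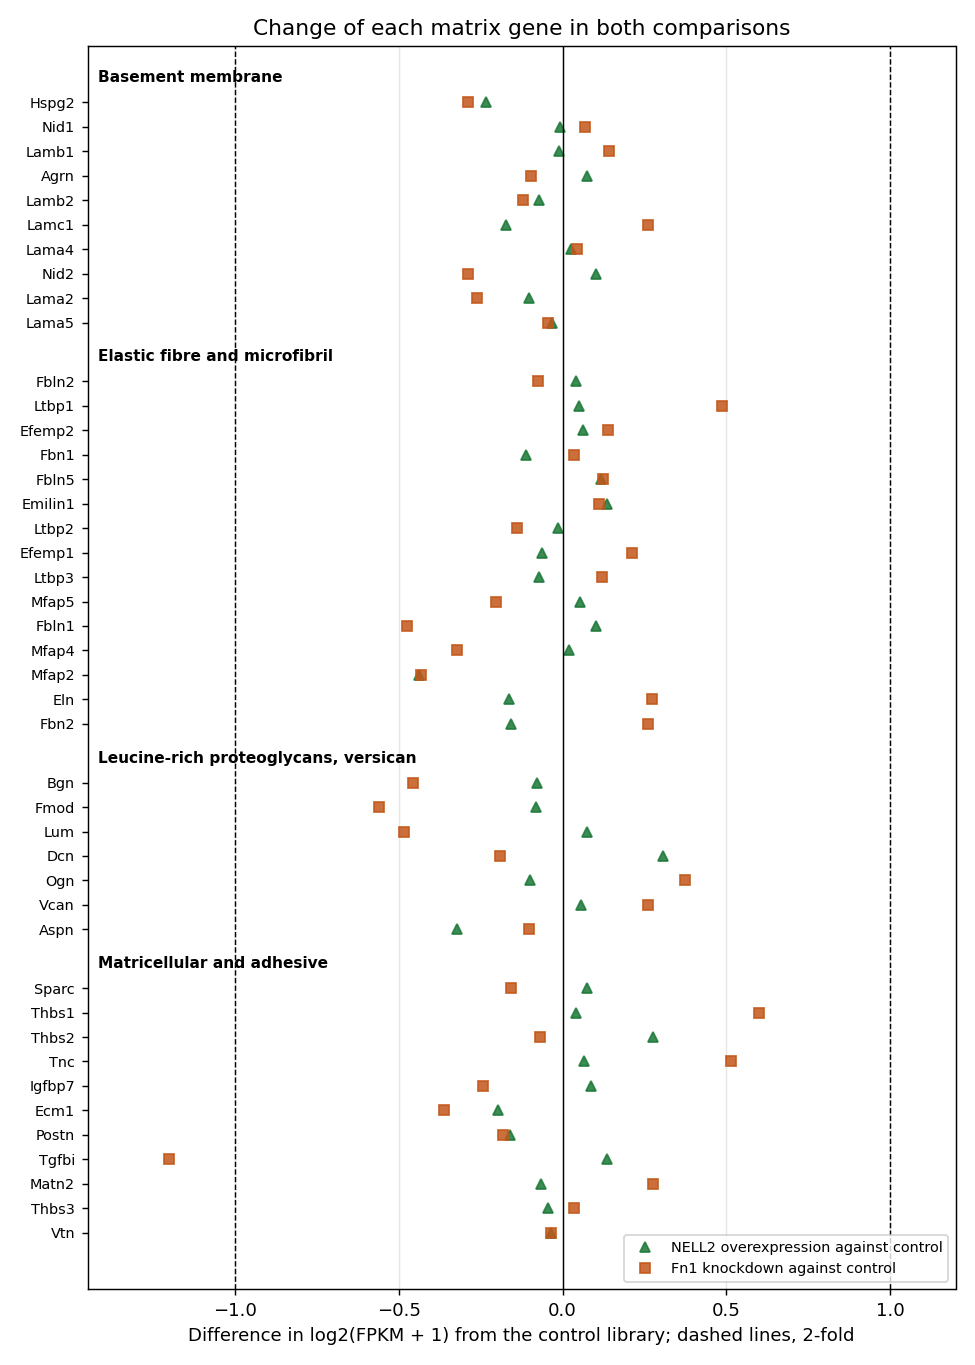
Difference in log2(FPKM + 1) from the control library for each gene in the NELL2 overexpression (triangles) and Fn1 knockdown (squares) libraries, with dashed lines at 2-fold. Tgfbi after Fn1 knockdown, at -1.20, is the only point beyond a dashed line, and Vtn was under the 1 FPKM filter.

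Tgfbi (ENSMUSG00000035493.10, GRCm38 chromosome 13, 56609523 to 56639562, plus strand) encodes an adhesive protein that is induced by TGF-β and shares fasciclin domains with periostin. Its level was 38.1 FPKM in the control, 42.0 FPKM in the NELL2 library and 16.0 FPKM in the knockdown library, which is the lowest by a wide margin. Relative to the control this was 110% with NELL2 and 42.0% after knockdown, and the latter is a log2 ratio of -1.20. Of the 6421 genes at 10 FPKM or more, 18 (0.280%) fell at least this far. The estimated fragments were 2374, 2702 and 1050, and no exon of Tgfbi overlaps another annotated gene. Postn, which encodes the related periostin, was at 100 FPKM in the control, 89.8 FPKM under NELL2 and 88.4 FPKM after Fn1 knockdown, so it was close to 88% of the control where Tgfbi was at 42.0%.

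The matricellular genes had a median log2 ratio of -0.11 after Fn1 knockdown, with 4 higher and 6 lower of 10 tested. Thbs1 and Tnc, both abundant, were among the higher ones, and neither passed 2-fold. Thbs1 (ENSMUSG00000040152.8, chromosome 2, 118111876 to 118127133, plus strand), which can activate latent TGF-β and binds integrins and CD47, was at 2177 FPKM in the control, 2237 FPKM under NELL2 and 3302 FPKM after knockdown. This was 152% of the control (log2 ratio 0.60), and Thbs1 moved from rank 12 to rank 2 among all genes. A ratio at least this high was seen in 2.88% of genes at 10 FPKM or more. Tnc (ENSMUSG00000028364.15, chromosome 4, 63959785 to 64047015, minus strand), whose protein binds fibronectin and modulates adhesion to it, was at 278, 291 and 398 FPKM in the control, NELL2 and knockdown libraries (log2 ratio 0.52 after knockdown). Both Thbs1 and Tnc share exon sequence with a noncoding gene on the opposite strand, Gm29233 and 8030451A03Rik. Sparc was at 2317, 2439 and 2079 FPKM in that order, and was thus lowest after knockdown (log2 ratio -0.16). As a result the ratio of Thbs1 to Sparc was 0.939 in the control, 0.917 with NELL2 and 1.59 after Fn1 knockdown.

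The thrombospondin genes stood at unequal ratios. Thbs2 was at 95.2% of the control after Fn1 knockdown, and Thbs3, at 5.55 FPKM in the control, 5.35 FPKM under NELL2 and 5.71 FPKM after knockdown, was at 103%. Thbs4, which is outside the 43 genes and was named after its value was seen, was at 4.85, 4.94 and 3.45 FPKM (log2 ratio -0.40 after knockdown). The level of Thbs1 was 7.53 times that of Thbs2 in the control, a smaller multiple with NELL2, and 12.0 times after knockdown. Among the other matricellular genes, Ecm1 was at 77.7% of the control after knockdown and Igfbp7, a secreted binding protein of insulin-like growth factors and of matrix, was at 179, 191 and 151 FPKM in the 3 libraries (84.5% after knockdown). Matn2, a matrilin that bridges matrix filaments, was at 6.98, 6.63 and 8.67 FPKM.

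Of the small leucine-rich proteoglycans, the 3 with the highest control levels had the lowest ratios of their group after Fn1 knockdown. Fmod (ENSMUSG00000041559.7, chromosome 1, 134037254 to 134048277, plus strand), fibromodulin, which directs collagen fibril assembly, was at 220 FPKM in the control, 208 FPKM under NELL2 and 149 FPKM after knockdown (log2 ratio -0.56). Lum, lumican, its relative in the same class, was at 76.6, 80.7 and 54.5 FPKM (log2 ratio -0.48 after knockdown). Bgn (ENSMUSG00000031375.17, chromosome X, 73483602 to 73495933, plus strand), which carries chondroitin or dermatan sulfate chains, was at 912, 863 and 664 FPKM (log2 ratio -0.46). Ratios at least this low were seen in 3.21%, 4.14% and 4.81% of genes at 10 FPKM or more, and none of the 3 genes has exons that overlap another gene. None of them reached 1.5-fold.

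Dcn and Aspn were also below the control after knockdown, at 87.4% and 92.6% of it. Ogn, osteoglycin, was higher, at 36.5 FPKM in the control, 34.0 FPKM under NELL2 and 47.6 FPKM after knockdown (log2 ratio 0.37). Vcan, versican, a large proteoglycan that binds hyaluronan, was also higher, at 31.6, 32.9 and 38.0 FPKM (log2 ratio 0.26). The 7 genes had a median log2 ratio of -0.19, with 2 higher and 5 lower.

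**Figure D3:**
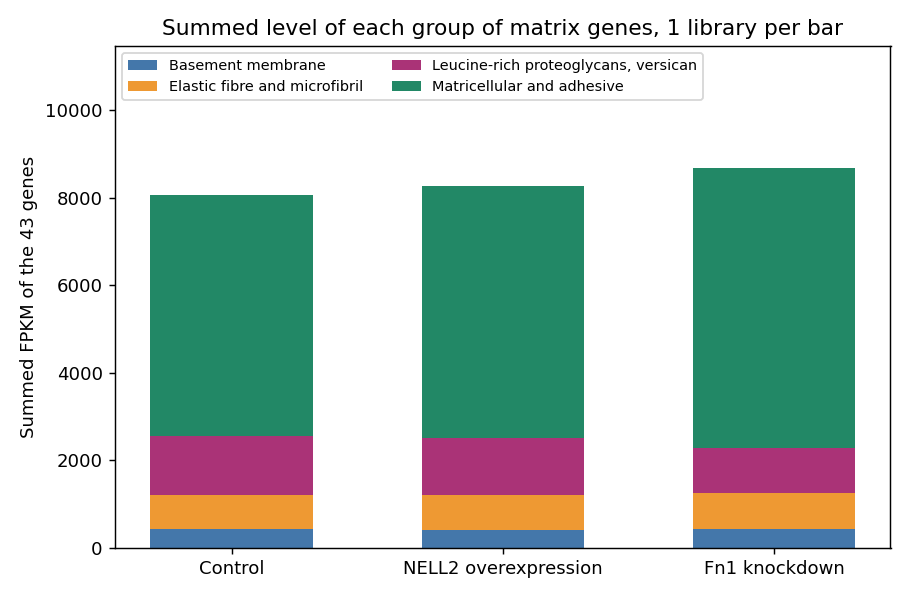
Summed FPKM of the 43 genes in each library, with 1 bar per library divided by role. The proteoglycan part is 1346 FPKM in the control and 1015 FPKM after Fn1 knockdown, and the matricellular part is 5520 and 6425 FPKM.

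In the sums, the leucine-rich proteoglycans and versican stood at 1346 FPKM in the control, 1300.0 FPKM under NELL2 and 1015 FPKM after Fn1 knockdown. This was 96.5% and 75.4% of the control. Without Bgn, which dominates this sum, the knockdown value was 80.7% of the control. The matricellular genes summed to 5520, 5764 and 6425 FPKM, and the last value was 116% of the control. That excess rested on Thbs1, and without Thbs1 the sum after knockdown was 93.4% of the control. For all 43 genes together the sums were 102% and 108% of the control with NELL2 and after knockdown, and 91.4% after knockdown without Thbs1.

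The elastic fiber and microfibril genes had a median log2 ratio of 0.11 after Fn1 knockdown, with 9 of 15 higher. Ltbp1 (ENSMUSG00000001870.16, chromosome 17, 75005568 to 75392512, plus strand), which anchors latent TGF-β in the matrix and is itself deposited on fibronectin, was at 118 FPKM in the control, 122 FPKM under NELL2 and 166 FPKM after knockdown, the highest of the 3 (log2 ratio 0.49). Of its relatives, Ltbp2 was at 90.5% and Ltbp3 at 109% of the control, and Ltbp4, which is outside the 43 genes and was named after its value was seen, was at 5.72 FPKM in the control and 3.67 FPKM after knockdown (log2 ratio -0.52). Fbln1, fibulin-1, a fibronectin-binding protein, was at 9.38, 10.1 and 6.46 FPKM (log2 ratio -0.48 after knockdown). Mfap4 was at 4.48, 4.56 and 3.38 FPKM and Mfap5 at 11.8, 12.3 and 10.2 FPKM, both lowest after knockdown. Eln was at 2.58, 2.20 and 3.33 FPKM and Fbn2 at 1.48, 1.22 and 1.97 FPKM, each highest after knockdown and lowest with NELL2. The Eln values rest on roughly 228, 201 and 310 fragments. The main fibrillin gene Fbn1 was at 70.8 FPKM under NELL2 and 78.6 FPKM after knockdown. In the knockdown library Fbn1 was at 103% of the control, Fbln2 at 94.9%, Fbln5 at 109%, Emilin1 at 108%, Efemp1 (fibulin-3) at 116% and Efemp2 (fibulin-4) at 110%.

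The basement membrane genes had a median log2 ratio of -0.070 after Fn1 knockdown, with 4 of 10 higher. Lamc1, the γ chain shared by most laminins, was at 41.6 FPKM in the control, 36.8 FPKM under NELL2 and 50.1 FPKM after knockdown (log2 ratio 0.26). Of the β chains, Lamb1 was at 59.6 FPKM under NELL2 and 66.3 FPKM after knockdown (111% of the control), and Lamb2 at 41.4 and 39.9 FPKM (91.7%). Of the α chains, Lama4 was at 33.0 and 33.5 FPKM (103%), Lama2 at 7.34 and 6.48 FPKM (81.4%) and Lama5 at 1.11 and 1.09 FPKM (94.3%), each under NELL2 and after knockdown. The ratio of Lamb1 to Lamb2 was 1.38 in the control, 1.44 with NELL2 and 1.66 after knockdown. Nid1 was at 85.2 FPKM under NELL2 and 89.9 FPKM after knockdown (105% of the control) and Nid2 at 22.4 and 16.9 FPKM (80.9%), which placed Nid1 at 4.11 times Nid2 in the control and 5.33 times after knockdown. Hspg2 was at 81.6% and Agrn at 93.4% of the control.

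**Figure D4:**
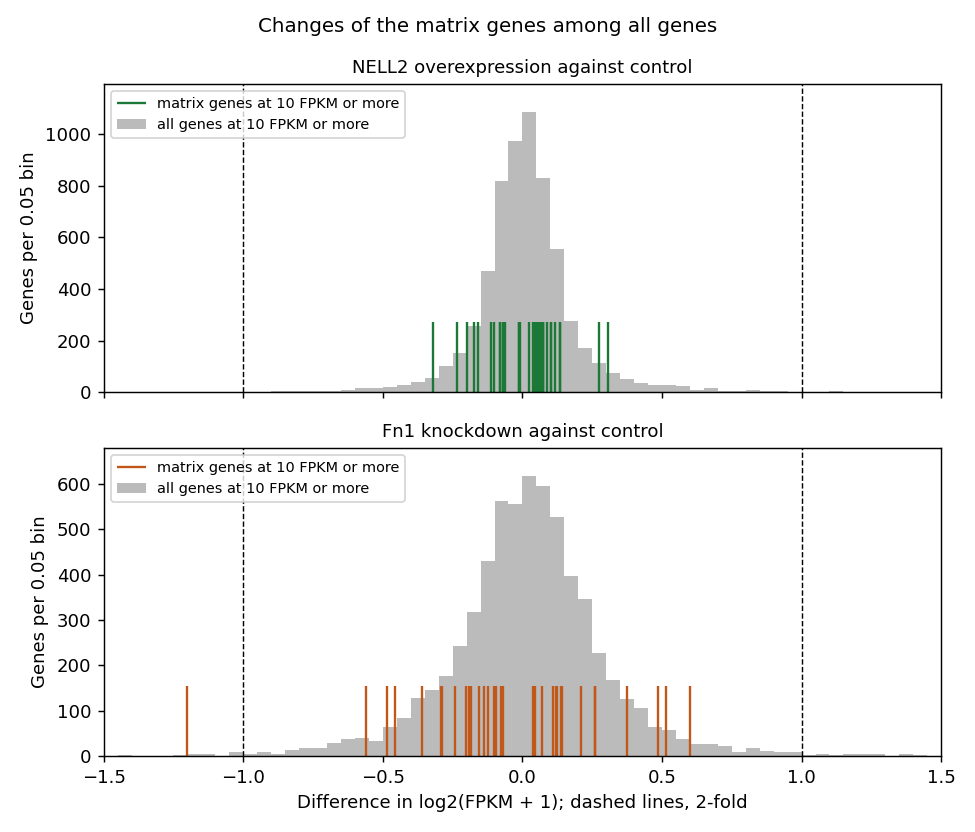
Number of genes at 10 FPKM or more by their difference in log2(FPKM + 1) from the control, in bins of 0.05 (grey), with a colored line for each matrix gene at the same level. With NELL2 the matrix genes run from -0.32 to 0.31, and after Fn1 knockdown from -1.20 to 0.60. Genes beyond 1.5 in either direction, 16 and 26, are not drawn.

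Both comparisons use the same control library, so a control value that is high or low by chance moves both. Of the 43 genes Tgfbi alone passed 2-fold, in the knockdown comparison. The difference between the NELL2 and Fn1 knockdown libraries was not tested.

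Among 5 lists of neighboring genes, 1 gene (Chpf2) was called. Of 53 other matrix glycoproteins and proteoglycans, 25 passed the filter and none was called in either comparison. The nearest to 2-fold was Npnt, nephronectin, an integrin ligand of basement membranes, at 11.7, 10.2 and 5.75 FPKM in the control, NELL2 and knockdown libraries (log2 ratio -0.92 after knockdown). It was named after its value was seen, as were the genes in the rest of this paragraph that did not pass 2-fold. Spp1, osteopontin, was at 2008, 2283 and 2727 FPKM. The 6 crosslinking genes (lysyl oxidases and Tgm2) and the 4 of 6 laminin receptor genes that passed the filter had no call. Of the 30 tested genes for glycosaminoglycan chains, Chpf2, a chondroitin polymerizing factor, was called with NELL2, rising from 11.5 to 36.6 FPKM, and was at 10.1 FPKM after knockdown. This was 1 of 30 (3.33%), against 0.374% of all genes called higher, and 1 gene is too few to set apart from that share. It shares exon sequence with Mir671 on its own strand and Smarcd3 on the other. None of the 31 such genes tested after knockdown was called, although Xylt1, which starts these chains, was at 1.72 FPKM in the control and 4.29 FPKM after knockdown (log2 ratio 0.96). Of 7 genes for ADAMTS proteases that cleave proteoglycans such as versican, 4 passed the filter and none was called. After knockdown 2 of these 4 were higher by 1.5-fold or more, against 2.92% of all genes, and with NELL2 none was. This list was short and chosen with earlier results known, so its share was not compared further. Adamts1 was at 12.0, 12.4 and 21.5 FPKM and Adamts5 at 7.33 FPKM in the control and 12.6 FPKM after knockdown.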

How the data were processed

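Polyadenylated RNA of 3 ST2 libraries, 1 per group, was sequenced by the authors as paired-end reads on an MGISEQ-2000. Per the labels, HISAT2 and DESeq were used and the build was GRCm38. FPKM per gene was deposited by the authors, and the program that computed it, the annotation and the use of strand are not given in the sources used here. The labels name DMEM as the medium and the methods α-MEM.

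FPKM was analysed as deposited, with Python 3.11.15 and pandas 2.3.3. The planned call rule was a difference of 1 or more in log2(FPKM + 1) with 1 FPKM or more in either library. No count test was possible on FPKM. The rule was run on simulated data with 200 planted 3-fold changes and little added noise. That run checked the code and cannot show how the rule performs on these libraries. The 43 genes and all lists were chosen with earlier results of these data known. Values in all libraries are given for called genes, the 3 largest rises and falls at 10 FPKM or more, the 5 highest levels and named complexes, and further genes, as well as the motifs other than TATAAA, were picked with the values in view. Positions and exon overlaps come from GENCODE M21 (GRCm38), where all 43 names matched. Exons of 1 gene (Ecm1, with Mir7014) overlap another on the same strand and those of 16 on the opposite strand. Depth was estimated from the FPKM of 1 fragment in genes with 1 transcript (600 bases or longer), and fragment numbers from median coding transcript lengths, so both are approximate. Itgam, a blood cell marker, occurred on more than 1 row and was left out. Protein sequences were not analysed here.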

Additional observations from a re-analysis of the deposited data

How the results depend on the processing

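For the 43 genes the settings tried were a pseudocount of 0.1 or 5, no filter, a filter of 5 FPKM, a 1.5-fold cutoff, scaling to the library sum and median-of-ratios scaling. Counts of called matrix genes stayed at 0 and 0 (higher and lower) with NELL2 overexpression in all of them. After Fn1 knockdown they stayed at 0 and 1, except that the 1.5-fold cutoff gave 1 higher gene, Thbs1. All 60 recomputed medians moved by less than 0.05. Tgfbi after knockdown, at a log2 ratio of -1.20, was at -1.25 with a pseudocount of 0.1 and at -1.04 with 5, close to the cutoff. Ratios of the genes not called moved by 0.05 or more in 8 values with a pseudocount of 0.1, in 12 with 5 and in 5 on the library-sum scale. Only the rescalings can turn the sign of a ratio, and none turned one. Over all genes the counts depended on low values. With NELL2, 47 higher and 35 lower became 102 and 76 with a pseudocount of 0.1, 15 and 11 with 5, 25 and 22 at 5 FPKM or more, 193 and 132 at 1.5-fold, and 115 and 95 on the library-sum scale. After knockdown, 86 and 69 became 179 and 179, 29 and 21, 66 and 52, 367 and 417, and 180 and 163. The library-sum scale makes every value larger, so the added 1 and the filter of 1 act on lower levels. On it 14540 genes passed the filter with NELL2, against 12572, and 14506 after knockdown, against 12574. The library sums themselves were close, between 396351 and 398718 FPKM. The median of all genes moved by less than 0.05 in every setting. No paired analysis was possible because only 1 library stood for each condition, and none could be left out. Culture-to-culture spread is unknown here, so differences of the size seen for most of these genes cannot be told apart from it. Depth limits Vtn and Mfap2 most.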

Other observations

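Several of the leucine-rich proteoglycan genes lie next to each other in the genome, and neighbors were at unequal ratios after Fn1 knockdown. On chromosome 10 of GRCm38, Dcn, Lum, Kera and Epyc lie within 203 kb on the plus strand. After knockdown Lum was at a log2 ratio of -0.48, Dcn at -0.19 and Epyc, epiphycan, at -0.085 (4.65 FPKM in the control and 4.33 FPKM after knockdown), and Kera was listed at 0 in both libraries. On chromosome 1, Fmod and Prelp lie within 138 kb on opposite strands. Fmod was at -0.56 and Prelp, at 90.8% of its control level, at -0.13. On chromosome 13, Ecm2, Aspn, Omd and Ogn lie within 120 kb on the plus strand. Ogn was at 0.37, Omd, osteomodulin, at 0.19 (2.62 and 3.14 FPKM) and Aspn at -0.10, while Ecm2 was under 1 FPKM. These are values from 1 library per group, and the differences between neighbors were not tested.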
